A study of Mus musculus with 48 samples.

Results

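Pancreatic β cells of mice given doxycycline to ablate β cells were compared with β cells of control mice, across all genes measured. The comparison takes every β-cell library of the series, 12 from doxycycline mice (DOX) and 12 from control mice (CTR), out of 48 libraries that also cover α cells. All animals, controls included, were male, 6 to 8 weeks old and carried the same 5 alleles. ProGcg-Venus labels α cells and RIP-Cherry labels β cells by fluorescence, and PER2::Luc is a luciferase reporter of the clock protein PER2. Insulin-rtTA and TET-DTA together make diphtheria toxin A in insulin-expressing cells when doxycycline is present. DOX mice drank water with 300 mg of doxycycline and 2% sucrose, and CTR mice drank sucrose water alone. Both groups were kept under equal light and dark phases of 12 h and had food only at night from 10 days before treatment and throughout it, and part of the animals was kept on inverted cycles for 2 weeks. Islets were isolated with collagenase, dissociated with trypsin and sorted by fluorescence. Cells were collected every 4 h at zeitgeber times (ZT, hours after lights on) 0, 4, 8, 12, 16 and 20, with 2 libraries per treatment and time.

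The model limits what the comparison can show. Because every DOX animal carried the toxin alleles, what doxycycline did as a drug and what the loss of cells did cannot be told apart. The DOX libraries hold the β cells that were still present and fluorescent at the sort. The labels do not say that the 2 libraries of a group came from separate animals, and the p-values therefore rest on library-to-library spread, which may be technical. Pools of sorted cells were sequenced, and fewer cells of a type cannot be told apart from less RNA per cell.

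β cells take up glucose, oxidise it in mitochondria, and turn the rise in ATP into closure of potassium channels, calcium entry and release of insulin granules. Incretin hormones such as GLP-1 and GIP raise cAMP in the cell and increase this release. β cells also make very large amounts of secretory protein, which loads their endoplasmic reticulum, and adult β cells rarely divide. Diphtheria toxin A blocks protein synthesis by modifying diphthamide, an altered histidine of elongation factor 2.

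Library totals were 20.1 to 58.5 M estimated counts in DOX and 22.3 to 69.9 M in CTR (M, 1000000). By the dates in the column names, 5 libraries of each treatment come from an earlier sequencing run and 7 from a later one, with both ZT0 libraries in the later run. Run and time were terms of the fit. Insulin 2 (Ins2) took 16.5 to 23.6% of the counts in DOX libraries and 17.5 to 26.4% in CTR libraries, and glucagon (Gcg) took at most 0.0439% in DOX and 0.0254% in CTR, which matches the labelled cell type. Markers of other cells were present. The 20 macrophage and dendritic cell markers summed to 160.0 to 1938 CPM in DOX libraries (median 1004) and to 62.3 to 487 CPM in CTR libraries (median 227), and none of them was at 0 in all libraries. CPM stands for counts per 1000000 counts of the library, scaled by TMM factors. One DOX library at ZT8 held 5912 CPM of acinar markers, against a DOX median of 198 CPM and a CTR median of 180.1 CPM, with Prss1 at 0 in all. Another at ZT4 held 403 CPM of stellate cell and fibroblast markers, against a DOX median of 29.4 CPM and a CTR median of 11.04 CPM. Without these 2 libraries 6718 genes were called.

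Of 15188 genes tested, 7122 were called at an adjusted p under 0.05 (46.9%, edgeR quasi-likelihood test). Of all genes tested, 23.8% were called higher in DOX and 23.1% lower. The rises were larger: 1311 genes (8.63%) were called higher by at least 2-fold and 223 (1.47%) lower by as much. Most calls were moderate, with 2309 genes (15.2%) higher and 3279 (21.6%) lower by less than 2-fold. In 209 genes (1.38%) all 12 DOX libraries lay above all 12 CTR libraries, and in 170 (1.12%) all 12 lay below. With the mean of the macrophage and dendritic cell markers as a further term, 3611 genes were called. Of these 1885 were higher and 1726 lower, against 3620 and 3502 in the main fit. All 20 markers rose in DOX, so this term overlaps with treatment. Where it moved the count of a gene list by more than 1.5 times, the count with it stands in brackets. Calls were lost over all genes too, so a smaller count in brackets is not by itself particular to its list. The part of those cells in these counts was not tested. Genes said below to rise or fall had an edgeR adjusted p under 0.05, and a value ± SE in brackets after a gene is its log2 fold change of DOX over CTR. The earlier run alone called 4638 of 14313 genes (32.4%) and the later run alone 3747 of 15282 (24.5%). Of all genes tested, 2798 (18.4%) were called higher with 1 direction in both runs and at all 6 times, and 2730 (18%) were called lower in that way.

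The largest rises included secreted proteins and a marker of β cells that have lost maturity. C1qtnf1 (chr11:118428203-118449963 of GRCm38), a secreted protein related to complement C1q and adiponectin, had 26.3, 49.5 and 82.1 CPM as the lowest, median and highest value of the DOX libraries, against 1.99, 2.73 and 5.23 CPM in CTR. Gpx3 (chr11:54902453-54910377), the secreted glutathione peroxidase, had 470.0, 1132 and 1855 CPM in DOX and 71.5, 109.6 and 161 CPM in CTR. The groups did not overlap for either gene, and at each of the 6 times the log2 difference lay between 3.41 and 4.53 for C1qtnf1 and between 3.08 and 4.03 for Gpx3. Aldh1a3 (chr7:66390890-66427517), which makes retinoic acid and marks dedifferentiated β cells, had 59.4, 235 and 437 CPM in DOX and 4.27, 15.7 and 85.7 CPM in CTR. Here the groups overlapped, since the highest CTR library passed the lowest DOX library. At each of the 5 times with both runs, the library of the later run was the higher one in both treatments. The fitted log2 fold changes were 4.05 ± 0.19, 3.47 ± 0.17 and 3.41 ± 0.28 for the 3 genes (± SE, n = 12 per group).

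Other genes among the largest rises had varied roles. Kdelr3, a receptor that returns escaped proteins to the endoplasmic reticulum, had 18.2, 37.5 and 53.2 CPM in DOX and 2.14, 5.55 and 7.32 CPM in CTR, with no overlap and a log2 fold change of 2.73 ± 0.13 (edgeR adjusted p = 1.90e-11). Sorcs2, a sorting receptor of the VPS10 family, had 10.4, 35.4 and 145 CPM in DOX and 2.26, 4.80 and 10.3 CPM in CTR, again without overlap. Dlk1, an imprinted membrane protein with EGF repeats, averaged 10.8 ± 9.07 CPM in DOX and 1.10 ± 0.745 CPM in CTR (SD, n = 12 each), and its groups did not overlap. Mfge8, which bridges dying cells and phagocytes, averaged 17.5 ± 11.8 CPM in DOX and 1.84 ± 1.94 CPM in CTR, and Serpina7, the thyroxine-binding globulin, 105 ± 68.7 CPM in DOX and 14.8 ± 11.3 CPM in CTR. Both overlapped between the groups in at least 1 library. Slc5a10, a sodium-coupled sugar transporter, rose by 3.01 ± 0.46 and the cilium gene Ttc25 by 2.96 ± 0.35 on the log2 scale (edgeR adjusted p = 2.68e-05 and 1.54e-06). Rasgrf2, an activator of Ras, averaged 98.1 ± 19.4 CPM in DOX and 23.6 ± 10.4 CPM in CTR, and caveolin-2 (Cav2) 9.11 ± 4.53 CPM in DOX and 0.675 ± 0.329 CPM in CTR. Neither overlapped.

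Genes named for the size of their fall also had varied roles. Nynrin (chr14:55854010-55874736), a gene with a retrovirus-derived integrase region, had 5.30, 19.2 and 46.1 CPM in DOX and 89.3, 254 and 439 CPM in CTR. Gad1, which makes GABA from glutamate, had 7.98, 12.7 and 28.8 CPM in DOX and 46.3, 75.1 and 154 CPM in CTR. Kcnj12, an inwardly rectifying potassium channel, had 1.24, 2.48 and 4.87 CPM in DOX and 10.8, 15.2 and 21.2 CPM in CTR. In each of these genes the highest DOX library lay below the lowest CTR library. They were also lower at all 6 times and in both runs, but this was a condition for naming the largest falls. The fitted log2 fold changes were -3.77 ± 0.35 for Nynrin, -2.48 ± 0.16 for Gad1 and -2.48 ± 0.18 for Kcnj12 (edgeR adjusted p = 8.82e-08, 5.91e-10 and 4.95e-09). Groups were also separate for melanophilin (Mlph), which ties granules to myosin, at -2.56 ± 0.26, for the cadherin Cdh7 at -2.14 ± 0.18, and for the synaptic scaffold gene Dlgap1 at -2.09 ± 0.17. Uridine phosphorylase (Upp1) fell by 1.71 ± 0.15 and Thsd4, a matrix protein related to the ADAMTS family, by 1.69 ± 0.15 on the log2 scale. The sulfotransferase Sult1c2 had a log2 fold change of -2.37 ± 0.27, with overlap. Trpm5, the calcium-activated cation channel, averaged 19.0 ± 15.1 CPM in DOX and 117 ± 56.3 CPM in CTR, and its groups overlapped.

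**Figure D1:**
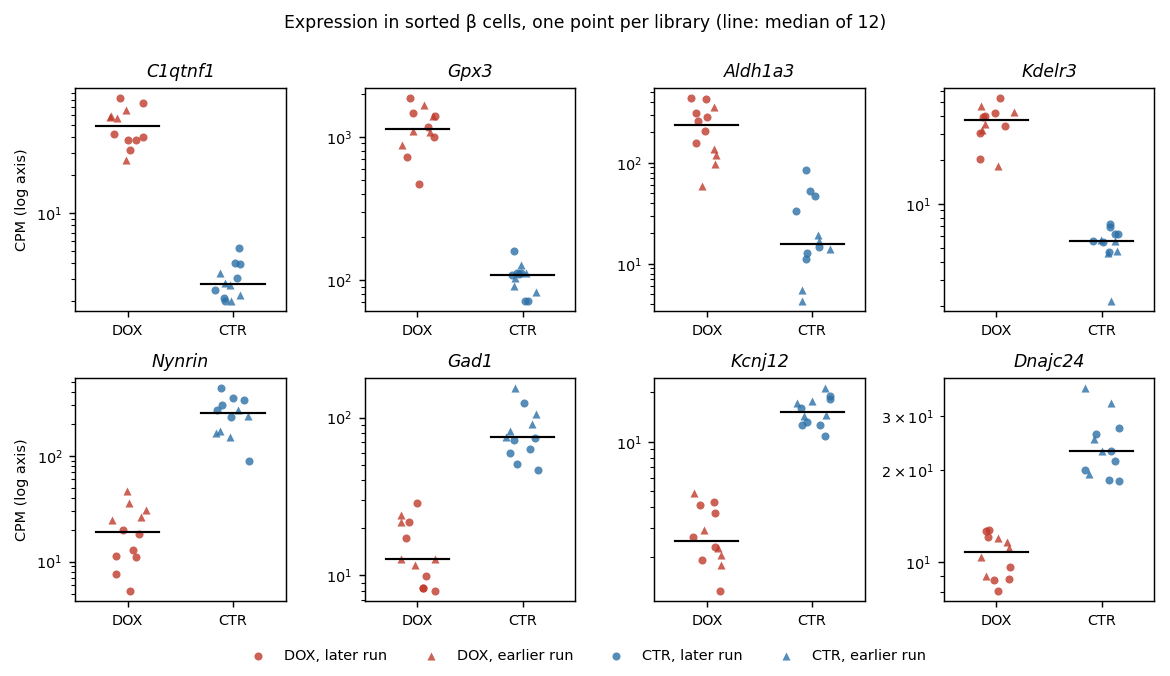
CPM on a log axis in each β-cell library for 4 genes that were higher in DOX (upper row) and 4 that were lower (lower row), with DOX left of CTR. Circles are libraries of the later run, triangles those of the earlier run, and lines are medians of 12. The groups are separate in all panels but that of Aldh1a3.

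Changes under 2-fold are named here for the lowest p in these same libraries, and many of them separated the groups completely. Such a choice favours separate groups. Over all genes tested, every DOX library was above all CTR libraries in 1.38% and below them in 1.12%. Cd200, a membrane protein that restrains myeloid cells, had 118, 149 and 171 CPM in DOX and 49.8, 81.3 and 98.3 CPM in CTR. Nucb1, a calcium-binding protein of the Golgi, had 413, 545 and 620.1 CPM in DOX and 251, 303 and 345 CPM in CTR. Pld3, a nuclease of the lysosome, had 172, 193 and 259 CPM in DOX and 108, 124 and 148 CPM in CTR. All 3 rose without any overlap, by 0.94 ± 0.065, 0.86 ± 0.064 and 0.67 ± 0.058 on the log2 scale. The lysosomal nucleoside transporter Slc29a3, the channel-like protein Tmc6, the RNA-binding protein Carhsp1, the transcription elongation factor Ell2 and the PQ-loop membrane protein Pqlc1 were also separate between the groups. Egf, a growth factor (0.98 ± 0.079), and Qsox1, which forms disulfide bonds (0.81 ± 0.07), rose with some overlap.

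Moderate falls chosen in the same way, for the lowest p, also included many with separate groups. Cpeb1, which controls the poly(A) tail of messenger RNA, had 42.7, 55.8 and 65.0 CPM in DOX and 74.1, 97.5 and 129 CPM in CTR. Kif1a, the kinesin that carries dense-core granules, had 164, 203 and 253 CPM in DOX and 282, 321 and 391 CPM in CTR. Neither gene had an overlapping library, and the log2 fold changes were -0.83 ± 0.061 and -0.68 ± 0.056. The leukaemia inhibitory factor receptor Lifr (-0.91 ± 0.074), protein kinase C β (Prkcb, -0.81 ± 0.062), the guanine nucleotide exchange factor Net1 (-0.91 ± 0.077), the actin nucleator Fmn2 (-0.92 ± 0.082), the membrane skeleton gene Epb41l3 (-0.78 ± 0.069), the ubiquitin ligase Trim37 (-0.73 ± 0.063) and Rtl5, a gene derived from a retrotransposon (-0.60 ± 0.046), were below every CTR library too. The edgeR adjusted p of these falls was at most 4.78e-08.

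**Figure D2:**
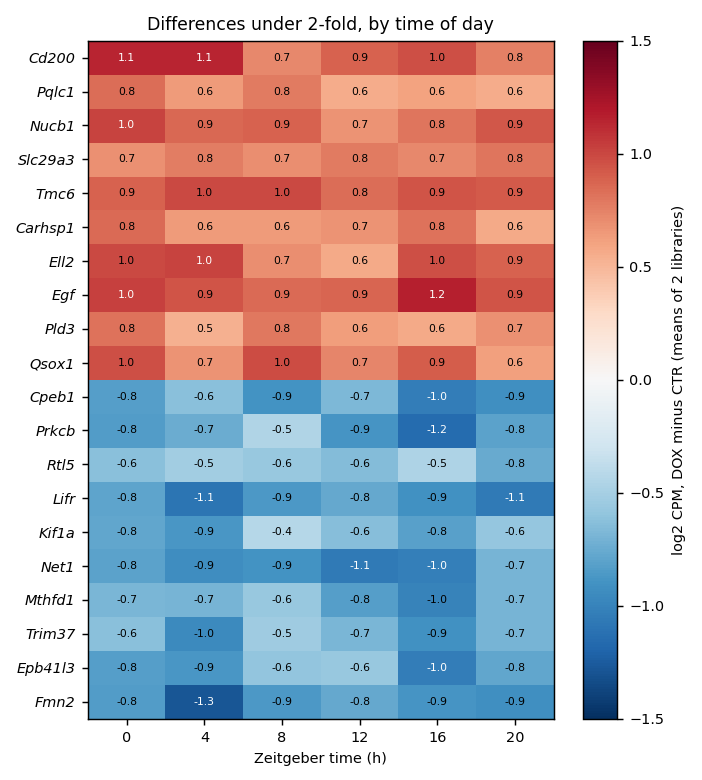
log2 CPM of DOX minus CTR, as the difference of the means of 2 libraries each, for 20 genes changed by less than 2-fold (rows) at 6 zeitgeber times in hours (columns). Red is higher in DOX and blue lower, and each row keeps its sign at every time. The genes were chosen for the lowest p in these libraries, which favours a constant sign.

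The genes of insulin granules and those of granule release moved in different directions. Of 18 tested genes for granule proteins and prohormone processing, 13 rose and 4 (1 with the macrophage term) fell (median log2 fold change 0.27, against -0.0071 over all genes tested). Chromogranin B (Chgb), which helps granules to form, had 2607, 5186 and 8109 CPM in DOX and 1346, 1506 and 1897 CPM in CTR, with every DOX library higher. Secretogranin II (Scg2) had 10311, 14624 and 17452 CPM in DOX and 6491, 8441 and 9563 CPM in CTR, also without overlap, and it had the largest gain in CPM among all genes called. The neuropeptide precursor Vgf averaged 181 ± 63.3 CPM in DOX and 43.5 ± 16.3 CPM in CTR, the granule membrane protein Ptprn 1211 ± 312 CPM in DOX and 647 ± 124 CPM in CTR, and the amidating enzyme Pam 1216 ± 178 CPM in DOX and 715 ± 110.0 CPM in CTR. In the other direction, Slc30a8, which loads zinc into insulin granules, averaged 442 ± 120.5 CPM in DOX and 851 ± 159 CPM in CTR (log2 fold change -0.95 ± 0.11, edgeR adjusted p = 1.60e-06). The insulin genes themselves were not called, with log2 fold changes of -0.028 ± 0.13 for Ins1 and -0.09 ± 0.13 for Ins2 (edgeR adjusted p = 0.878 and 0.6). Reads of these near-identical copies can be split between them.

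For the machinery that docks and fuses granules, 13 of 26 tested genes fell and 2 (1 with the macrophage term) rose (median -0.17). The falls were moderate. Granuphilin (Sytl4), which docks granules at the membrane, had 174, 245 and 362 CPM in DOX and 313, 401 and 517 CPM in CTR, and the fusion protein Stx3 had 18.01, 24.3 and 27.9 CPM in DOX and 30.97, 35.6 and 38.6 CPM in CTR. The groups overlapped for Sytl4 and were separate for Stx3. Their log2 fold changes were -0.77 ± 0.083 and -0.58 ± 0.061, and that of the fusion protein Vamp2 was -0.42 ± 0.055. Rph3al, an effector of the granule GTPases Rab3 and Rab27, was at -0.53 ± 0.081. The granule GTPase Rab3d rose, with 477 ± 69.6 CPM in DOX and 312 ± 49.4 CPM in CTR (log2 fold change 0.61 ± 0.074, edgeR adjusted p = 1.58e-06).

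Genes for glucose entry and glycolysis were called in both directions, 9 (4 with the macrophage term) higher and 10 (6 with the macrophage term) lower of 24. These are 37.5% and 41.7% of the list, against 23.8% and 23.1% of all genes tested. Slc2a2, the glucose transporter of mouse β cells, had 220.2, 462 and 1083 CPM in DOX and 677, 933 and 1488 CPM in CTR, with overlap and a log2 fold change of -0.99 ± 0.19. Pfkfb2, which makes the activator of phosphofructokinase and binds glucokinase, had 62.4, 82.0 and 97.0 CPM in DOX and 87.3, 122 and 161 CPM in CTR, also with overlap (-0.66 ± 0.062). The phosphofructokinase Pfkl (-0.43 ± 0.058), the aldolases Aldoa (-0.36 ± 0.067) and Aldoc (-1.28 ± 0.15) and the enolase Eno2 (-0.80 ± 0.11) fell as well. Among the rises, Pfkfb3, a relative of Pfkfb2, averaged 30.1 ± 14.96 CPM in DOX and 10.99 ± 3.84 CPM in CTR, Eno1 rose by 0.38 ± 0.08 and Gpi1 by 0.34 ± 0.068 on the log2 scale. The hexokinases Hk1 and Hk2 and the lactate dehydrogenase Ldha, which mature β cells keep low, averaged 1.68 ± 0.849 CPM, 1.12 ± 0.868 CPM and 4.40 ± 2.93 CPM in DOX and 0.405 ± 0.314 CPM, 0.251 ± 0.170 CPM and 1.32 ± 0.908 CPM in CTR. With the macrophage marker mean as a term, Hk1, Hk2, Pfkfb3 and Ldha were no longer called (edgeR adjusted p = 0.35, 0.48, 0.0889 and 0.597) and Ldha had a log2 fold change of -0.30; the part of those cells in these rises was not tested. Aldoa lost its call in the same fit (adjusted p = 0.231).

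Few genes of the respiratory chain were called, and the enzymes that feed it were called about as often as all genes tested. Of 29 nuclear genes for respiratory chain subunits, 26 were not called, and the called ones were Ndufa1 (0.99 ± 0.11), Atp5o (0.30 ± 0.089) and Sdha (-0.40 ± 0.06). Atp5o was not called in the later run alone (edgeR adjusted p = 0.277). Pyruvate carboxylase (Pcx), which feeds pyruvate into the citric acid cycle for anaplerosis, had 84.6, 122 and 173 CPM in DOX and 182, 225 and 269 CPM in CTR. Every DOX library was below the CTR range for Pcx, whose log2 fold change was -0.82 ± 0.10. The mitochondrial isocitrate dehydrogenase Idh2 averaged 84.9 ± 15.02 CPM in DOX and 123 ± 15.7 CPM in CTR. Pdk1, which inhibits pyruvate dehydrogenase, rose by 0.88 ± 0.19, and the malic enzyme Me3 by 0.84 ± 0.13 on the log2 scale (edgeR adjusted p = 8.48e-04 and 1.95e-05). In all, 6 of 26 genes of the citric acid cycle and pyruvate entry rose and 5 (3 with the macrophage term) fell (23.1% and 19.2% of the list, close to the 23.8% and 23.1% of all genes tested).

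Many lipid genes were lower. In fatty acid oxidation and ketone body use, 12 of 22 fell (54.5%, against 23.1% of all genes tested) and 5 (3 with the macrophage term) rose (3 without DOX replicate 1 of ZT20, as without the 2 libraries that stood apart); with the macrophage term 4 were called lower. Hadh, a dehydrogenase of β-oxidation that also restrains insulin release, had 395, 531 and 694 CPM in DOX and 679, 780.3 and 1115 CPM in CTR, with overlap (-0.67 ± 0.085). Etfb (0.54 ± 0.056) and Acadvl (0.26 ± 0.046), an electron carrier and a first-step dehydrogenase of the same pathway, rose. In fatty acid and triglyceride synthesis 11 of 23 fell and 3 (1 with the macrophage term) rose (47.8% and 13.0%). The transcription factors that drive it, Srebf1 and Mlxipl (ChREBP), averaged 127 ± 29.4 CPM and 103 ± 38.5 CPM in DOX and 195 ± 33.0 CPM and 162 ± 44.0 CPM in CTR. Of 20 cholesterol genes 7 (3 with the macrophage term) fell and 2 (1 with the macrophage term) rose (35% and 10%). The shares over all genes tested were 23.1% lower and 23.8% higher.

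In amino acid and GABA metabolism 6 of 20 genes rose and 6 fell (30% each, against the 23.8% and 23.1% of all genes tested), and in serine, glycine and one-carbon metabolism 5 (3 with the macrophage term) of 14 rose and 2 (1 with the macrophage term) fell, or 4 without CTR replicate 1 of ZT16. Glutamine synthetase (Glul) had 179, 311 and 419.9 CPM in DOX and 438, 567 and 824 CPM in CTR. Maob, a monoamine oxidase, had 70.5, 94.7 and 156 CPM in DOX and 139, 202 and 246 CPM in CTR. Glul had no overlapping library and Maob had some. The GABA transaminase Abat averaged 131 ± 21.99 CPM in DOX and 180.3 ± 19.7 CPM in CTR. Gad1 and Abat, which make and degrade GABA, were thus both lower in DOX. Among the rises were ornithine aminotransferase (Oat, 1.92 ± 0.19) and glycine decarboxylase (Gldc, 1.95 ± 0.21), which were low in both groups, at 9.77 ± 5.06 CPM and 6.39 ± 2.44 CPM in DOX and 2.55 ± 1.35 CPM and 1.70 ± 0.580 CPM in CTR. The folate enzyme Mthfd1 had 68.6, 77.3 and 102 CPM in DOX and 105, 138 and 148 CPM in CTR, with no overlap (-0.74 ± 0.063), while the nucleotide enzyme Tyms (0.76 ± 0.12) rose.

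**Figure D3:**
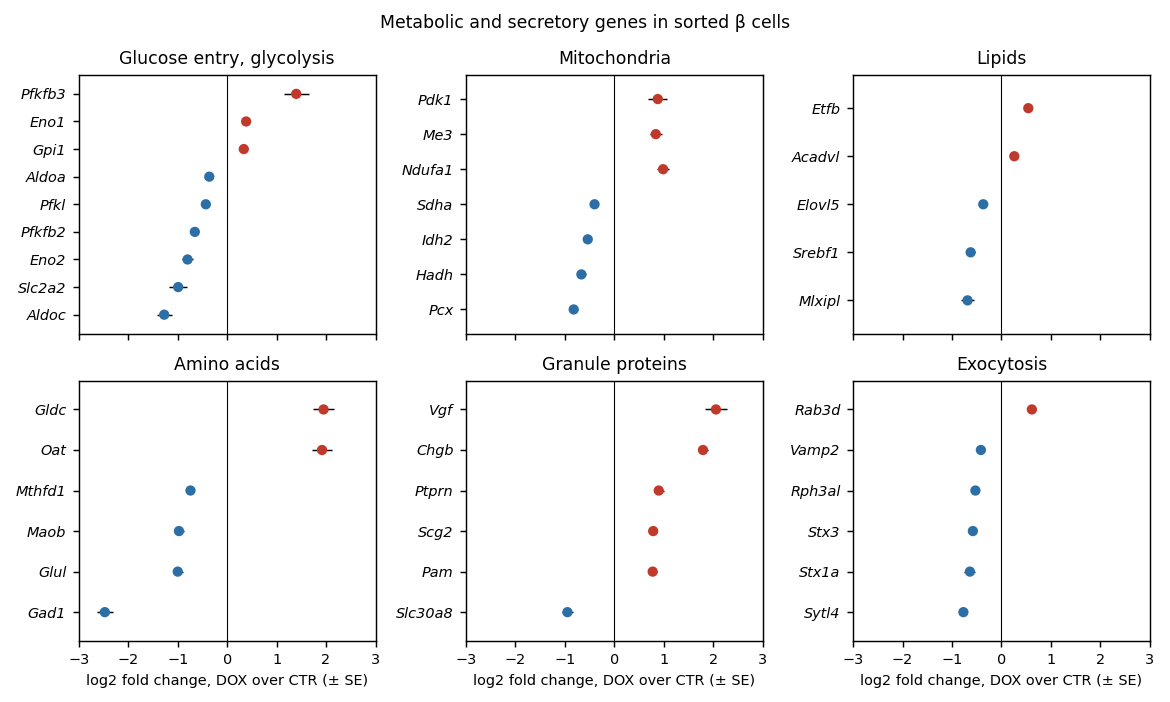
log2 fold changes of DOX over CTR in β cells (x axis, edgeR) with SE bars for genes of glucose entry, mitochondria, lipids, amino acids, granule proteins and exocytosis (y axis), each fitted over 12 DOX and 12 CTR libraries. Red points are higher in DOX and blue points lower. The genes shown are a selection from each list. Among them, granule proteins other than Slc30a8 lie right of 0, and exocytosis genes other than Rab3d lie left of it. Over the full lists, 13 of 18 granule genes rose and 4 fell, and 2 of 26 exocytosis genes rose and 13 fell.

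Antioxidant genes rose in 13 and fell in 7 (2 with the macrophage term) of 29 (44.8% and 24.1%). Over all genes tested 23.8% rose and 23.1% fell, so the share of falls was close to that of all genes. Prdx4, the peroxiredoxin of the endoplasmic reticulum, had 32.7, 46.9 and 73.8 CPM in DOX and 10.3, 15.8 and 23.7 CPM in CTR with no overlap (1.64 ± 0.086). Txnip, an inhibitor of thioredoxin that responds to glucose, had 695, 1773 and 2388 CPM in DOX and 157, 323 and 802 CPM in CTR (2.04 ± 0.25), with overlap. The extracellular superoxide dismutase Sod3 averaged 5.62 ± 3.73 CPM in DOX and 0.517 ± 0.378 CPM in CTR. Thioredoxin (Txn1, 0.56 ± 0.071) and Gpx2 (0.85 ± 0.16) rose moderately. Among the falls were Nqo1 (-1.40 ± 0.19) and Gstm1 (-1.10 ± 0.14), at 2.30 ± 1.28 CPM and 15.5 ± 4.31 CPM in DOX and 5.76 ± 3.07 CPM and 33.1 ± 9.67 CPM in CTR.

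Several ion channels of the glucose response were moderately lower. Kcnj11, the pore of the ATP-sensitive potassium channel, had 108, 133 and 179 CPM in DOX and 151, 181 and 205 CPM in CTR, with overlap (-0.37 ± 0.059), and the calcium channel subunits Cacna1d and Cacna2d1 were at -0.38 ± 0.061 and -0.47 ± 0.074. The calcium release channel Itpr1 averaged 32.5 ± 13.5 CPM in DOX and 75.7 ± 24.6 CPM in CTR (-1.24 ± 0.13). Over the lists, 9 (3 with the macrophage term) of 22 potassium channels rose and 6 fell (40.9% and 27.3%). Of 26 calcium, sodium, chloride and TRP channels 5 (1 with the macrophage term) rose and 10 fell (19.2% and 38.5%). The shares over all genes tested were 23.8% and 23.1%. Rises were seen for the leak channels Kcnk1 (0.92 ± 0.081) and Kcnk16 (0.35 ± 0.079) and the sodium channel Scn3a (1.06 ± 0.13). Kcnk1 had 49.8, 69.2 and 81.9 CPM in DOX and 25.4, 34.7 and 48.2 CPM in CTR, with every DOX library higher. Of the pumps, the sodium pump subunit Atp1b2 had a log2 fold change of -1.18 ± 0.13, and the calcium pump Atp2a2 (SERCA2) averaged 1766 ± 218 CPM in DOX and 2261 ± 291 CPM in CTR (-0.36 ± 0.078).

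Transport of amino acids and metals changed in both directions. Of 22 amino acid transporters 11 (5 with the macrophage term) rose and 4 (1 with the macrophage term) fell (50% and 18.2%). Several of the rises were large from a low level. Slc38a5, a glutamine transporter better known from α cells, averaged 12.0 ± 5.26 CPM in DOX and 2.44 ± 1.42 CPM in CTR (2.37 ± 0.24), Slc1a5 5.72 ± 1.86 CPM in DOX and 1.94 ± 0.544 CPM in CTR (1.55 ± 0.17), and Slc1a1 2.72 ± 1.62 CPM in DOX and 0.212 ± 0.119 CPM in CTR (3.65 ± 0.36). The arginine carrier Slc7a2 was far more abundant and fell, with 129, 248 and 359 CPM in DOX and 280.3, 374 and 460.2 CPM in CTR, with overlap (-0.72 ± 0.12). In zinc, iron and copper handling 6 of 20 rose and 8 fell (30% and 40%, against 23.8% and 23.1% of all genes tested). The metallothioneins Mt1 and Mt2, which bind zinc, averaged 50.9 ± 18.4 CPM and 22.4 ± 8.41 CPM in DOX and 118 ± 30.3 CPM and 50.1 ± 14.9 CPM in CTR. The transferrin receptor Tfrc was at 38.9 ± 8.67 CPM in DOX and 82.6 ± 21.0 CPM in CTR, and ferritin light chain Ftl1 at 385 ± 91.3 CPM in DOX and 731 ± 129 CPM in CTR (log2 fold changes -1.07 ± 0.10 and -0.93 ± 0.12). The Golgi zinc transporter Slc30a7 (0.45 ± 0.076) and the copper importer Slc31a1 (0.56 ± 0.088) rose. Slc17a9, which loads nucleotides into vesicles, had 44.3, 76.5 and 125 CPM in DOX and 15.8, 32.3 and 35.9 CPM in CTR, without overlap (1.45 ± 0.11).

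Receptors for incretins and for long-chain fatty acids were lower. Gipr, the GIP receptor, had 14.1, 21.4 and 39.1 CPM in DOX and 26.5, 42.5 and 98.1 CPM in CTR (-1.07 ± 0.15). Glp1r, the GLP-1 receptor, had 117, 158 and 226 CPM in DOX and 180.2, 261 and 365 CPM in CTR (-0.76 ± 0.12), and the long-chain fatty acid receptor Ffar1 99.0, 124 and 177 CPM in DOX and 137, 196 and 251 CPM in CTR (-0.60 ± 0.086). Each showed some overlap and was lower at all 6 times. The adenosine receptor Adora1 was at -0.80 ± 0.11. Rises came from the prostaglandin receptors Ptger3 (8.46 ± 7.99 CPM in DOX, 0.808 ± 0.432 CPM in CTR) and Ptger4 (3.27 ± 1.30 CPM in DOX, 1.27 ± 0.406 CPM in CTR), from the inhibitory adrenergic receptor Adra2a (0.37 ± 0.072) and from the short-chain fatty acid receptor Ffar2 (0.58 ± 0.06). Over the list 13 (8 with the macrophage term) of 28 G protein-coupled receptors fell and 8 rose (46.4% and 28.6%). Downstream of these receptors, 12 (7 with the macrophage term) of 33 genes of cAMP and G protein signalling rose and 12 (5 with the macrophage term) fell (36.4% each). Of all genes tested, 23.8% rose and 23.1% fell. Rgs4 and Rgs16, which shorten G protein signals, averaged 43.2 ± 12.5 CPM and 118 ± 30.5 CPM in DOX and 13.0 ± 6.92 CPM and 55.4 ± 15.9 CPM in CTR. Of the cAMP sensors, Rapgef3 (Epac1) rose from a low level by 2.40 ± 0.21 and Rapgef4 (Epac2) was at -0.36 ± 0.057, with the protein kinase A subunit Prkar2b at -0.58 ± 0.069.

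Genes of the IGF axis moved both ways. Pappa2, a protease that frees IGF from its binding proteins, had 389, 705 and 1576 CPM in DOX and 19.5, 62.1 and 217 CPM in CTR with no overlap. Igfbp5, a binding protein that this protease cleaves, had 0.779, 3.10 and 8.82 CPM in DOX and 3.36, 10.4 and 23.05 CPM in CTR, with overlap (-1.57 ± 0.28). The kinases Akt1 and Akt2 and the receptor substrate Irs1 were at -0.35 ± 0.05, -0.38 ± 0.052 and -0.39 ± 0.07. Inpp5f, a phosphoinositide phosphatase, averaged 133 ± 51.2 CPM in DOX and 71.3 ± 15.2 CPM in CTR. In all, 10 of 26 genes of the insulin and IGF axis rose and 8 fell (38.5% and 30.8%, against 23.8% and 23.1% of all genes tested). With the macrophage term 3 rose.

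Several feedback genes of the MAP kinase pathway were higher. Dusp6, the ERK phosphatase, had 15.3, 40.8 and 65.2 CPM in DOX and 6.37, 11.8 and 17.5 CPM in CTR, with overlap (1.72 ± 0.18), and the ETS factor Etv1 had 41.6, 53.5 and 73.6 CPM in DOX and 14.5, 24.2 and 32.2 CPM in CTR (1.28 ± 0.091), with every DOX library of Etv1 higher. Etv4 (2.67 ± 0.37) and Etv5 (0.55 ± 0.10) rose as well. Of 30 feedback and immediate early genes 11 rose and 1 fell, or 3 without CTR replicate 1 of ZT12 and 2 without DOX replicate 2 of ZT16 or CTR replicate 2 of ZT0 or ZT4. In the TGF-β family 3 of the ligands that rose from low levels had separate groups. Inhba, the activin A subunit, averaged 9.43 ± 2.65 CPM in DOX and 1.62 ± 0.758 CPM in CTR, Tgfb3 5.84 ± 1.43 CPM in DOX and 1.81 ± 0.407 CPM in CTR, and Bmp2 2.14 ± 0.888 CPM in DOX and 0.289 ± 0.213 CPM in CTR. Their log2 fold changes were 2.57 ± 0.18, 1.68 ± 0.12 and 2.95 ± 0.36. The activin receptor Acvr1c (-0.92 ± 0.20), Tgfbr3 (-0.66 ± 0.15) and the signal carrier Smad2 (-0.38 ± 0.049) were lower; the first 2 were not called in the later run alone (edgeR adjusted p = 0.0922 and 0.0903). The counts were 10 (5 with the macrophage term) rises and 11 falls of 29 (34.5% and 37.9%, against 23.8% and 23.1% of all genes tested). Falls were also found for the neurotrophic receptor Ret (104 ± 31.4 CPM in DOX, 179 ± 34.4 CPM in CTR), for Vegfa and Vegfb, which draw blood vessels to islets (-0.47 ± 0.063 and -0.93 ± 0.10), and for the Notch ligand Dll1 (-1.13 ± 0.14). In Wnt and Hippo signalling 4 (0 with the macrophage term) of 25 rose and 10 fell (16% and 40%).

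**Figure D4:**
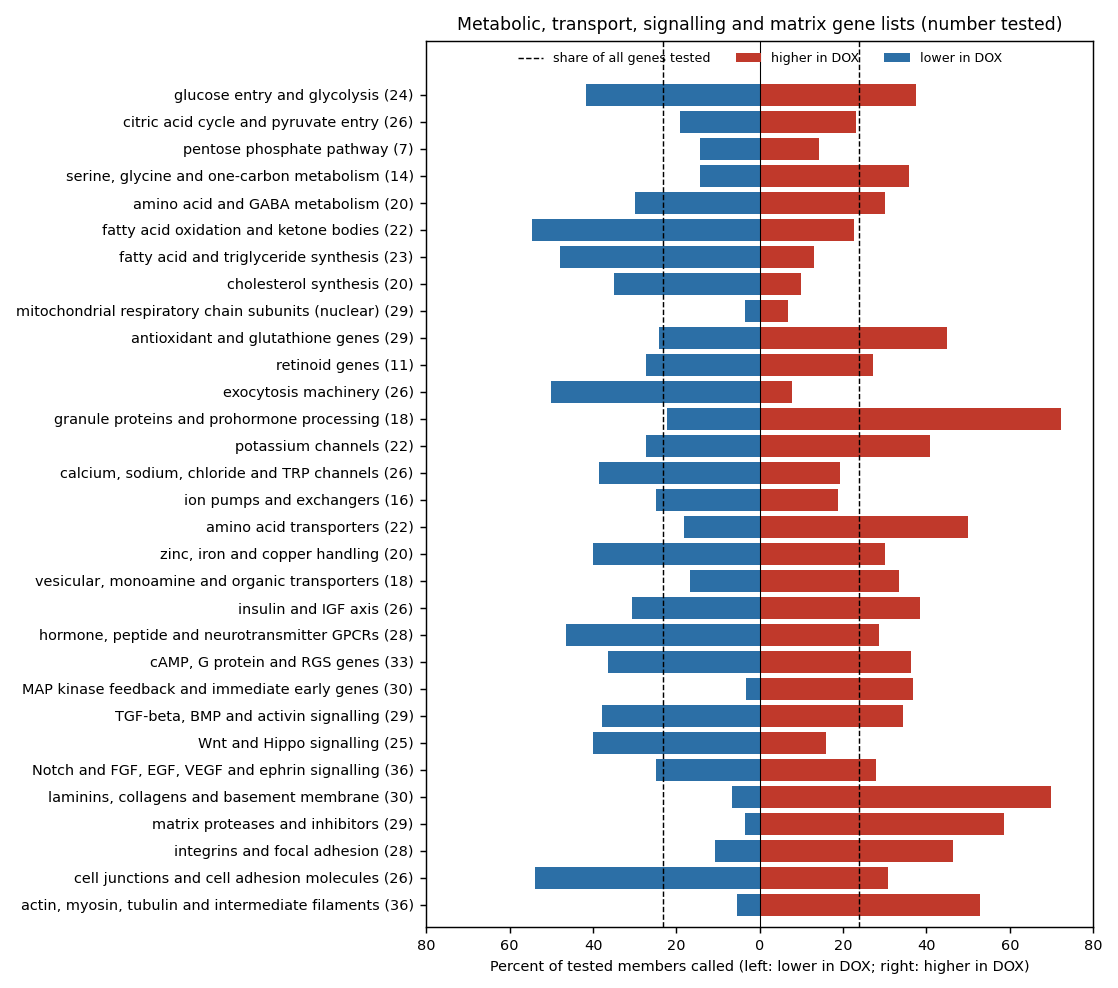
Percent of the tested members of 31 gene lists (y axis, number tested in brackets) that were called higher in DOX (red, to the right) or lower (blue, to the left). Dashed lines mark the shares over all genes tested, 23.8% higher and 23.1% lower. Granule proteins and the matrix lists reach furthest to the right, and the lists of fatty acid oxidation, cell junctions and exocytosis furthest to the left.

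Many matrix genes rose, and markers of stellate cells moved with them. Of 30 laminin, collagen and basement membrane genes 21 rose and 2 (0 with the macrophage term) fell. The median log2 fold change was 2.44 within the earlier run and 0.87 within the later one, and the later run alone called 5 higher. Stellate cell and fibroblast markers summed to a median of 55.4 CPM in DOX and 14.7 CPM in CTR in the earlier run, and to 9.13 CPM in DOX and 5.33 CPM in CTR in the later run. With the macrophage term 4 rises were called, and 15 without the 2 libraries that stood apart in acinar or stellate markers. The part of other cells in these rises was not tested. Lama5, a laminin chain of vascular and epithelial basement membranes, kept its call in each of these fits and had 5.72, 10.7 and 19.8 CPM in DOX and 0.942, 1.22 and 2.12 CPM in CTR, with no overlap and 3.10 ± 0.16 on the log2 scale. Smoc1, a calcium-binding matrix protein, had 16.02, 27.8 and 55.6 CPM in DOX and 3.93, 7.15 and 12.1 CPM in CTR, also without overlap (1.95 ± 0.14), and Agrn, the proteoglycan agrin, was at 0.70 ± 0.12. The collagen gene Col1a1 had 0.164, 5.87 and 97.96 CPM in DOX and 0.0354, 1.31 and 10.5 CPM in CTR, and neither the later run alone nor the fit with the macrophage term called it (edgeR adjusted p = 0.262 and 0.342).

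Proteases and their inhibitors followed the same direction, 17 higher and 1 lower of 29 (5 higher with the macrophage term). Plat, the tissue plasminogen activator, averaged 15.5 ± 10.4 CPM in DOX and 2.45 ± 0.564 CPM in CTR, and its inhibitor Serpine2 averaged 7.90 ± 3.11 CPM in DOX and 1.79 ± 0.472 CPM in CTR. Cystatin C (Cst3) had 278, 391.6 and 557 CPM in DOX and 188, 233 and 359.6 CPM in CTR, with overlap (0.69 ± 0.078). Genes of integrins and focal adhesions rose in 13 (7 with the macrophage term) and fell in 3 (0 with the macrophage term) of 28, among them the hyaluronan receptor Cd44 (0.90 ± 0.14) and the adaptors Zyx (0.91 ± 0.11) and Vcl (0.59 ± 0.10). Of 36 cytoskeletal genes 19 (12 with the macrophage term) rose, such as the tubulins Tubb6 (1.94 ± 0.16) and Tubb5 (0.74 ± 0.11) and lamin A (Lmna, 0.53 ± 0.081), and 2 (1 with the macrophage term) fell.

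Among genes for cell junctions and adhesion molecules 14 of 26 fell and 8 (4 with the macrophage term) rose. Gjd2, the connexin that couples mouse β cells electrically, had 163, 248 and 308 CPM in DOX and 314, 378 and 528 CPM in CTR, without overlap (-0.67 ± 0.093). The guidance receptors Robo1 and Robo2, which keep islet architecture in mice, averaged 31.4 ± 4.99 CPM and 69.6 ± 19.5 CPM in DOX and 55.0 ± 7.52 CPM and 131 ± 33.4 CPM in CTR. The cadherin Cdh8 (-0.71 ± 0.084) and the adhesion receptor Nectin1 (-0.64 ± 0.091) were lower too. Alcam rose, with 106 ± 12.5 CPM in DOX and 69.5 ± 8.33 CPM in CTR (0.61 ± 0.073), and so did the nectin-like receptor Pvr (1.52 ± 0.23).

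Genes of the unfolded protein response, which raises the folding capacity of the endoplasmic reticulum, rose in 18 of 22 and fell in 0; the count of rises was 17 with the macrophage term and 14 in the later run alone. Derl3, a subunit of the channel that removes misfolded proteins, had 35.6, 75.2 and 102 CPM in DOX and 8.19, 19.8 and 32.9 CPM in CTR, with every DOX library higher (1.85 ± 0.14). Creld2, a folding factor, had 89.0, 305 and 476 CPM in DOX and 50.2, 95.2 and 158 CPM in CTR, and the chaperone Hspa5 (BiP) 1290.4, 3244 and 4929 CPM in DOX and 1159, 1724 and 2436 CPM in CTR. Both overlapped between the groups and were higher in DOX at all 6 times (1.51 ± 0.17 and 0.73 ± 0.13). The disulfide isomerase Pdia6 was at 0.77 ± 0.10. Promoter sequences of RefSeq (GRCm38.p6, 250 bases before the start) were found for 19 of the 22 genes. The endoplasmic reticulum stress element, CCAAT and CCACG with 9 bases of any kind between them, was searched on both strands without mismatch. It stood in 9 of these 19 promoters (47.4%) and in 35 of all 27025 genes in the table (0.13%). Of the 17 genes with the element that were tested, 10 were called higher and 0 lower, and of the 8 among them outside the list 2 were called higher (25%). The 4 promoters below are of members named here, with the element in capitals. They lie at chr10:75893148-75893397 for Derl3, chr15:88819396-88819645 for Creld2, chr12:17266339-17266588 for Pdia6 and chr2:34771840-34772089 for Hspa5, all on the plus strand. In Derl3 and Creld2 the element reads on the opposite strand.
Derl3: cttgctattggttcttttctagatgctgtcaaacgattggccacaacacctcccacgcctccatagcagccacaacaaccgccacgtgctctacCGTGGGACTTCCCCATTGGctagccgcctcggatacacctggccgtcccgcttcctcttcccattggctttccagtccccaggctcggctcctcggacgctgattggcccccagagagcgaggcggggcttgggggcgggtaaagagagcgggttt
Creld2: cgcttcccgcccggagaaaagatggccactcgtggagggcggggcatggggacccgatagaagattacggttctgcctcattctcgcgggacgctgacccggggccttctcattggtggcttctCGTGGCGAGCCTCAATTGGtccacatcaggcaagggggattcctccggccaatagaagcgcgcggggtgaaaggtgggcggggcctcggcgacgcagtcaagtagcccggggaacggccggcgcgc
Pdia6: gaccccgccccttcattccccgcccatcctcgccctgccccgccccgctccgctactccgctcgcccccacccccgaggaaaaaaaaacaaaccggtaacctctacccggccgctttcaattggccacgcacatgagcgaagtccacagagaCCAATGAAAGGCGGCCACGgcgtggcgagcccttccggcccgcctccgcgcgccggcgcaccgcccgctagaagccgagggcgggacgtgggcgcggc
Hspa5: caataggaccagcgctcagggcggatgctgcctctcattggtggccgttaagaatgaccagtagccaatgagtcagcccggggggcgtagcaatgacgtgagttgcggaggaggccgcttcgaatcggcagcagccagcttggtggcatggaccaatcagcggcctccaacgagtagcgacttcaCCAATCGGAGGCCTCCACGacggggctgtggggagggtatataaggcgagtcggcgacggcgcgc
A match is only a description of these letters.

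Genes of DNA replication and mitosis rose. All 25 genes of G2 and mitosis were higher in DOX (median log2 fold change 1.62, 2.16 in the earlier and 1.30 in the later run), 24 of them with the macrophage term, and 23 of 24 S phase genes rose. The kinase Cdk1, which starts mitosis, had 9.20, 12.8 and 27.1 CPM in DOX and 2.01, 4.31 and 5.83 CPM in CTR, and its cyclin Ccnb1 4.53, 7.66 and 13.8 CPM in DOX and 1.14, 2.12 and 3.88 CPM in CTR, both without overlap. Mcm5 (1.43 ± 0.17) of the replication helicase and Rrm2 (1.41 ± 0.15), which makes deoxynucleotides, had separate groups as well. Regulators of G1 moved both ways. The E2F factor E2f2 (1.06 ± 0.086), the kinase Cdk6 (2.05 ± 0.24) and the inhibitor Cdkn1a (p21, 1.39 ± 0.20) rose, whereas Ccnd2, the main D cyclin of mouse β cells, had 655, 869 and 1040.5 CPM in DOX and 975, 1224 and 1519.5 CPM in CTR, with overlap (-0.50 ± 0.069). Promoters of 20 of the 25 G2 and mitosis genes were in the table. The CCAAT box was in 17 of them (85%), against 37.5% of all genes, and TTTGAA, a form of the cell cycle homology region, in 8 (40%), against 18.3% of all genes, both strands counted. Over all tested genes, 25.6% of those with CCAAT and 26% of those with TTTGAA were called higher, close to the 23.8% of all genes tested. Cdk1 and Ccnb1 are shown with CCAAT and TTTGAA on either strand in capitals, at chr10:69352913-69353162 and chr13:100786487-100786736, both on the minus strand. The Ccnb1 promoter holds CCAAT but no TTTGAA.
Cdk1: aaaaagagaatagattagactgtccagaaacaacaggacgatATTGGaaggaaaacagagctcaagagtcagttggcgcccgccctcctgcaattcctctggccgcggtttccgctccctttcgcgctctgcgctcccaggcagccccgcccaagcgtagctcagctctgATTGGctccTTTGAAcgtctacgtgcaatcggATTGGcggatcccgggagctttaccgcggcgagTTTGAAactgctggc
Ccnb1: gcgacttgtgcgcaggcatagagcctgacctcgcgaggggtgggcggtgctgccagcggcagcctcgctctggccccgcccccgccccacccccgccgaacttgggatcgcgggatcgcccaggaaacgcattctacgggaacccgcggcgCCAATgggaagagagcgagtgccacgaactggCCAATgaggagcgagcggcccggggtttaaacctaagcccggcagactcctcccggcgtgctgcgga

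Genes of protein synthesis, the process that the toxin blocks, were split. Dnajc24, a co-chaperone needed to make diphthamide, had 8.06, 10.8 and 12.7 CPM in DOX and 18.3, 23.04 and 37.0 CPM in CTR, with no overlap, at log2 differences between -1.63 and -0.85 over the 6 times (-1.19 ± 0.10, edgeR adjusted p = 1.54e-08). Dph6, the last enzyme of that pathway, averaged 21.1 ± 2.12 CPM in DOX and 27.9 ± 2.75 CPM in CTR (-0.40 ± 0.047). Elongation factor 2 itself (Eef2), the target of the toxin, averaged 2032 ± 249 CPM in DOX and 1686 ± 217 CPM in CTR (0.27 ± 0.075); its call was lost within either run, without ZT12 and with the macrophage term (adjusted p = 0.0706, 0.118, 0.0558 and 0.0993). Eef1g (0.57 ± 0.08) and Eef1b2 (0.52 ± 0.088), subunits of elongation factor 1, rose. The list held 15 genes of diphthamide synthesis and elongation factors, and 6 of them were not called. The 3 that fell were Dnajc24, Dph6 and Dph7, and the 6 that rose were all elongation factors. Of 33 ribosomal protein genes 21 rose and 0 fell, with a median log2 fold change of 0.26 over the list and 13 rises called under the macrophage term and 5 in the later run by itself. Rplp0 averaged 596 ± 89.6 CPM in DOX and 372 ± 87.5 CPM in CTR. Short ribosomal genes have many near-identical copies, and their counts are uncertain to that extent. Of 24 genes of ribosome assembly 18 were not called, 2 (1 with the macrophage term) rose and 4 (0 with the macrophage term) fell. These are 8.33% and 16.7% of the list, against 23.8% and 23.1% of all genes tested.

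Among stress and degradation genes, the p53 targets Cdkn1a, Phlda3 (1.92 ± 0.24) and Ccng1 (0.53 ± 0.051) rose. This list had 9 (5 with the macrophage term) rises and 3 (1 with the macrophage term) falls of 18 (50% and 16.7%). Of 22 targets of ATF4, 5 (1 with the macrophage term) rose and 3 (1 with the macrophage term) fell (22.7% and 13.6%). The other 14 were not called, and the shares over all genes tested were 23.8% higher and 23.1% lower. Of 21 apoptosis regulators 5 (1 with the macrophage term) rose and 4 fell (23.8% and 19.0% of the list). These shares were close to the 23.8% and 23.1% of all genes tested. Genes that promote death and genes that restrain it were called in both directions. Cycs, Apaf1 and Bad of the first kind and Bcl2 and Mcl1 of the second rose. Bcl2l11 (BIM, -0.62 ± 0.13), Casp9 (-0.55 ± 0.10) and Bid of the first kind and Bcl2l1 of the second fell. Lysosomal genes were called higher 8 (4 with the macrophage term) times and lower 8 (4 with the macrophage term) times of 29 (27.6% and 27.6%, close to the shares of all genes tested), with 5 lower without DOX replicate 2 of ZT20. The autophagy gene Wipi1 had 78.6, 105 and 197 CPM in DOX and 37.2, 47.9 and 76.8 CPM in CTR, and the protease Ctsz 45.1, 68.5 and 87.2 CPM in DOX and 27.4, 35.7 and 43.9 CPM in CTR, neither with overlap. The membrane proteins Lamp1 and Lamp2 fell (-0.40 ± 0.066 and -0.65 ± 0.095).

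Genes of β-cell identity were lower in 12 and higher in 2 of 19. Mafa, a transcription factor of mature β cells, had 64.5, 104 and 149 CPM in DOX and 126, 247 and 366 CPM in CTR, and the peptide gene Ucn3 199, 282 and 549.7 CPM in DOX and 459, 641 and 807 CPM in CTR. The groups overlapped for both, and both were lower at all 6 times (-1.22 ± 0.13 and -1.03 ± 0.14). Of the genes that mature β cells keep low, 12 of 14 rose, but 2 with the macrophage term. Some genes better known from other islet cells rose. Gc, the vitamin D-binding protein, had 229, 371 and 655 CPM in DOX and 29.4, 59.5 and 103 CPM in CTR, and transthyretin (Ttr) 969, 1828 and 2851 CPM in DOX and 265, 439 and 611 CPM in CTR. Neither overlapped, while the pancreatic polypeptide gene Ppy (109 ± 39.3 CPM in DOX, 55.6 ± 26.0 CPM in CTR) did. The gastrin gene Gast, which is active in embryonic pancreas, averaged 2.46 ± 1.78 CPM in DOX and 0.258 ± 0.167 CPM in CTR without overlap, and Cd24a, a surface protein of progenitors, rose by 1.59 ± 0.13 on the log2 scale.

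Interferon-stimulated genes had a larger median fold in the earlier run. Of 25 interferon-stimulated genes 17 were called higher in the joint fit, 6 within the later run and 2 with the macrophage term. Within the earlier run, whose own filter on low counts kept 1 more, all 26 were called higher. The median log2 fold change was 2.33 within the earlier run and 0.36 within the later one. Iigp1, an interferon-induced GTPase, had 0.898, 8.65 and 98.4 CPM in DOX and 0.0684, 0.427 and 5.33 CPM in CTR, with overlap (log2 fold changes of 5.08 ± 0.30 within the earlier run and 3.24 ± 0.52 within the later run). For MHC class I and antigen processing, 8 of 16 rose and 1 fell, with 1 rise called with the macrophage term. The MHC class I light chain gene B2m averaged 132 ± 94.5 CPM in DOX and 41.3 ± 13.1 CPM in CTR, and that term ended its call (edgeR adjusted p = 0.117). All 20 macrophage and dendritic cell markers rose, such as Cd74 (223 ± 108 CPM in DOX, 46.6 ± 27.8 CPM in CTR), which was itself among the genes averaged for that term. The part of these cells in the immune rises was not tested. Complement C3 averaged 37.8 ± 17.8 CPM in DOX and 13.0 ± 6.49 CPM in CTR (1.56 ± 0.17) and was called in both runs and with that term, and the chemokine Cx3cl1 fell (-1.01 ± 0.15).

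**Figure D5:**
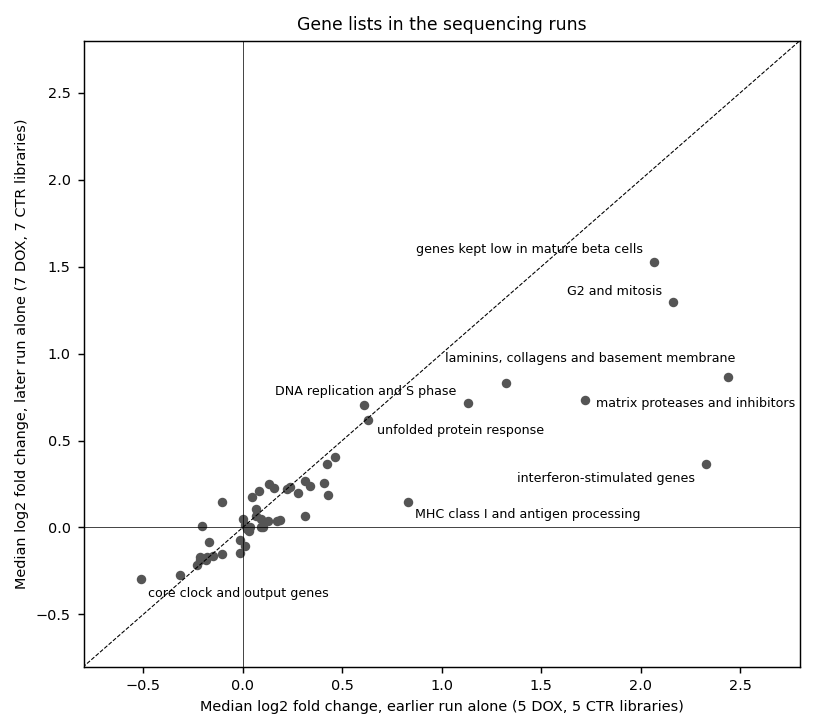
Median log2 fold change of DOX over CTR for 52 gene lists in the earlier run alone (x axis, 5 DOX and 5 CTR libraries) and in the later run alone (y axis, 7 of each). Each point is a list, the dashed line marks equal values, and the lists far from it are named with others for orientation. Interferon, matrix and protease genes lie far below the line, and the unfolded protein response lies on it.

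Clock genes were lower in 13 and higher in 2 (1 with the macrophage term) of 23 (56.5% and 8.70%). Among the lower ones were the output factors Dbp (-1.18 ± 0.23), Hlf (-1.16 ± 0.22) and Tef (-0.80 ± 0.13). The E-box CACGTG stood in 5 of 18 promoters found (27.8%), against 6.86% of all genes. Of the 1074 tested genes with it 234 were called higher (21.8%) and 306 lower. Falls thus outnumbered rises among them, whereas 23.8% of all genes tested were called higher and 23.1% lower. No gene was called for a dependence of the DOX difference on time of day (0 of 15188, 0%, edgeR F test of 5 terms), with 394 (2.59%) at an unadjusted p under 0.05; DESeq2 called 13. A difference between runs was called for 7 genes (0.0461%), with 988 (6.51%) at an unadjusted p under 0.05.

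In the sorted α cells of the series 19 of 14932 genes were called (0.127%). A difference between the cell types was called for 4126 of 16207 genes (25.5%), of which 2053 (12.7%) had a higher DOX difference in β cells and 2073 (12.8%) a lower one. This fit treated α and β libraries as independent. Those of the same treatment, time and replicate number may share islets, and such pairing was not modelled. For Dnajc24 the log2 fold change in α cells was 0.13 ± 0.083, and β minus α was -1.33 ± 0.13 (edgeR adjusted p = 7.99e-10). For Gpx3 these values were 0.22 ± 0.10 and 3.24 ± 0.20, and for Kdelr3 0.26 ± 0.085 and 2.45 ± 0.16. Other genes described above rose in α cells as well. Aldh1a3 had a log2 fold change of 2.34 ± 0.36 in α cells (edgeR adjusted p = 0.00763), Iigp1 2.78 ± 0.50 (adjusted p = 0.0235) and B2m 1.81 ± 0.31 (adjusted p = 0.0178). For these 3 genes β minus α was 0.92 ± 0.52, 1.27 ± 0.78 and -0.43 ± 0.40, and no difference was called (edgeR adjusted p = 0.195, 0.24 and 0.465). Serpina7, Slc17a9 and Ell2 also rose in α cells, by 0.43 ± 0.081, 0.37 ± 0.064 and 0.28 ± 0.054 on the log2 scale, with a larger rise in β cells called for each. Among the lists, a higher DOX difference in β cells was called for 20 of 25 genes of G2 and mitosis. It was called for 14 of 22 genes of the unfolded protein response and 8 of 18 of granule proteins. A lower DOX difference in β cells was called for 10 of 26 exocytosis genes and 13 of 26 junction and adhesion genes. These counts use the sign of β minus α, whatever the direction within each cell type. For the interferon-stimulated genes a higher difference was called for 1 of 25 and a lower one for 0, and their median log2 fold change in α cells was 1.203.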

How the data were processed

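RNA of sorted β cells was sequenced from 12 DOX and 12 CTR libraries, and the 24 α-cell libraries entered only the α-cell counts and the comparison of cell types. Per the labels' protocols, polyadenylated RNA was made into TruSeq version 2 libraries, which do not mark strand. Per the submitters' processing notes, bcl2fastq and STAR were used with the build GRCm38. The counting program and its handling of shared or overlapping genes are not given in the sources used here, so antisense, overlapping and near-identical genes are uncertain. The authors deposited estimated counts per gene, not scaled for depth; 57.6% of nonzero values were whole within 1e-06, and of whole values up to 20, 99.9% were even. They were rounded, scaled by TMM and tested with edgeR 4.0.16 (R 4.3.3, limma 3.58.1, quasi-likelihood F test, filterByExpr with a minimum count of 10, Benjamini-Hochberg threshold 0.05), with time and run as terms, on 15188 of 42713 genes; the test was checked on simulated data. DESeq2 1.42.0 was an alternative, as were other scaling, no filter, halved counts, leave-outs and marker covariates. CPM in the text use TMM factors.

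Members and the 59 gene lists were chosen with earlier results of these data known. Genes are named by rule: markers, and the largest changes among called genes that kept their direction at all 6 times and in both runs. Also named are the called changes under 2-fold of lowest p, the largest gains and losses in CPM, and the lowest p of the other tests. From each list up to 6 called genes of lowest p per direction are named. Some genes that this rule names are not reported here. Totals of 20.1 to 69.9 M counts per library limit precision mainly for genes under a few CPM.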

Additional observations from a re-analysis of the deposited data

Results flagged for a closer look

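A difference between the DOX effect in β and α cells was called by edgeR for 4126 genes (adjusted p under 0.05). Among those named by the lowest p, the log2 difference of β minus α cells was 3.24 for Gpx3, 3.51 for Pappa2, 2.45 for Kdelr3 and 3.89 for C1qtnf1. It was 2.27 for Gc, 2.18 for Rasgrf2, 3.61 for Cav2 and 1.97 for the LDL receptor-related gene Ldlrad3. On the negative side it was -1.33 for Dnajc24, -2.46 for Dlgap1, -1.66 for Upp1, -3.49 for Nynrin, -0.71 for Kif1a and -1.12 for the cytochrome P450 gene Cyp4v3. The transcript T2 was at -3.49, and its reads may overlap those of other genes. Ankrd34c was at -5.81, a fitted value that depends on the prior count, since it averaged 0.00961 ± 0.0240 CPM in DOX and 0.836 ± 0.452 CPM in CTR β cells.

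A difference of the DOX effect between the sequencing runs was called for 7 genes in β cells. For those given here, the log2 difference of the later minus the earlier run was -3.08 for Ifit1, -1.09 for Ddx58 and -1.72 for Tnfsf10, all known from the interferon response. It was -0.95 for Crybg1, -1.23 for Gm28177 and 2.83 for 6330403K07Rik. In Tnfsf10 the log2 fold change was 0.71 ± 0.23 within the earlier run and -1.01 ± 0.21 within the later one, and in Crybg1 these values were 0.63 ± 0.12 and -0.34 ± 0.11. Their sign thus differed between runs. Over the alternative fits the log2 fold change ranged from -0.50 to 2.64 for Ifit1, -0.21 to 0.89 for Ddx58 and -0.14 to 1.08 for Gm28177. These 3 genes therefore did not keep their sign in all fits either, and no negative value of theirs was called. Run and collection of the replicates cannot be told apart.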

How the results depend on the processing

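Of the alternatives to the main comparison, other size factors called 7110 genes, no filter 7028, DESeq2 7429, halved counts 6881, no run term 6462, a mean over groups 6926 and the acinar marker term 7171, against 7122. Leaving out 1 library gave 6731 to 7207 genes, and leaving out 1 time 6120 to 6587. Leaving out the 2 libraries that stood apart, chosen after seeing the data, gave 6718. No gene called both in the main fit and in one of these changed sign. With the macrophage marker term 2 genes called in both fits did, Slc11a1 and Bank1, named after their values were seen. The counts moved most with the earlier run alone (4638 called, 2105 lower), the later run alone (3747; 2126 higher, 1621 lower) and the macrophage marker term (3611; 1885 higher, 1726 lower). The runs alone have fewer libraries, and the cause of the other was not tested. Among named genes, Ldha turned to -0.30 with the macrophage term, Crybg1 was at -0.34 in the later run alone and, in the earlier run alone, Tnfsf10 at 0.71 and 6330403K07Rik at -1.19. The ranges of Ifit1, Ddx58 and Gm28177, which also include negative values, are given above. DESeq2 called 13 genes for a dependence on time, against 0. The test by run called 7 genes, 33 without the filter, 85 with DESeq2, and 0 to 22 with 1 library left out (22 without ZT16 DOX replicate 2, 0 without ZT20 DOX replicate 1, ZT12 CTR replicate 1 or ZT16 CTR replicate 1). The difference between β and α cells was called for 2139 and 1243 genes in the earlier and later run alone. The time test could not be fitted in the earlier run alone, which has 1 library per group.

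Replicates of the same number did not deviate together at every time (r of deviations -0.418 at ZT0, 0.0108 at ZT12, and 0.138 to 0.339 at the others). At all times but ZT0, libraries of the same number came from the same run. These values therefore cannot show whether the numbers pair the samples beyond the run. Besides the list counts given above, counts of 1 or 2 genes of a list in 1 direction could move by 1 with a library left out. Larger counts could move further. Rises of basement membrane genes and of ribosomal proteins ranged from 16 to 24 (21 each in the main fit). Rises of interferon-stimulated genes ranged from 15 to 21 (17), and those of the insulin and IGF axis from 7 to 10 (10). Falls ranged from 2 to 6 (3) for ATF4 targets and from 3 to 6 (4) for amino acid transporters. A replicate block called 6862 genes, 4 in the test by run and 3807 for β against α cells.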

Other observations

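Several groups were not described above. Of genes for α-cell identity 5 of 8 rose and 1 fell, with the transcription factor Irx2 at 1.58 ± 0.539 CPM in DOX and 0.616 ± 0.329 CPM in CTR. Genes of δ, PP and ε cells rose in 5 of 7, and 1 was called higher with the macrophage term. Of genes for endocrine progenitors and dedifferentiation 6 of 14 rose and 3 fell. Regulators of G1 and S phase entry rose in 14 and fell in 5 (2 with the macrophage term) of 23. In Notch, FGF, EGF, VEGF and ephrin signalling 10 (3 with the macrophage term) of 36 rose, such as the neurotrophin receptor Ntrk2 (0.42 ± 0.06), and 9 fell, such as the EGF receptor ligand Tgfa (-0.62 ± 0.10), which is 27.8% and 25.0% of the list, close to the shares of all genes tested. For ion pumps and exchangers the counts were 3 higher and 4 lower of 16 (18.8% and 25.0%, close to the shares of all genes tested). The chloride importer Slc12a2 was at 0.42 ± 0.09 and the bicarbonate transporter Slc4a7 at -0.55 ± 0.10. Of 18 vesicular, monoamine and organic transporters 6 (3 with the macrophage term) rose and 3 fell (33.3% and 16.7%). Of 11 retinoid genes 3 (1 with the macrophage term) rose and 3 fell (27.3% each, close to the shares of all genes tested). In the pentose phosphate pathway 1 of 7 rose and 1 fell (14.3% each). Heat shock chaperones rose in 5 (2 with the macrophage term) of 15 and fell in 0; 3 rose without DOX replicate 2 of ZT0, ZT4 or ZT12, DOX replicate 1 of ZT16 or ZT20, or CTR replicate 2 of ZT4 or ZT20. Diphthamide and elongation factor genes rose in 6 and fell in 3 of 15, and complement, chemokine and acute phase genes rose in 10 (3 with the macrophage term) and fell in 4 of 26.

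Markers of other cells summed to medians of 14.2 CPM in DOX and 10.5 CPM in CTR for endothelium, 306 CPM in DOX and 226 CPM in CTR for duct, 8.17 CPM in DOX and 9.32 CPM in CTR for lymphocytes, and 62.5 CPM in DOX and 58.0 CPM in CTR for Schwann and neuronal cells.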
